A study of Mus musculus with 24 samples.

Results

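Potassium channel genes were followed in the hippocampus of Tob-KO and wild-type (WT) mice, naive or after fear conditioning with repeated tones and foot shocks in a chamber. Names starting with Kcn in the table of counts were taken, except Kcne2 and names ending in os, as or -ps, and a gene was kept when at least 6 of the 24 libraries held 10 or more counts. Of 99 such names, 96 were left by the exclusions and 83 were kept, out of 47593 genes in all. The series held 8 groups of 3 male C57BL/6J mice aged 8 to 12 weeks, WT or Tob-KO, and either naive or taken post-conditioning after 15 min, 1 h or 3 h. Tob-KO is a constitutive knockout line, so the gene was targeted in all cells and throughout life, and naive mice received no conditioning. The parts of chamber, tone and shock in a difference from naive mice cannot be told apart. Each library was made from poly(A) RNA of the hippocampus as a bulk tissue, in which fewer cells of a type and less RNA per cell cannot be told apart.

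Potassium channels let potassium ions leave the cell and thereby set the resting potential, shape the action potential and limit repetitive firing. Most are assembled from 4 pore-forming subunits that the Kcn genes encode. The voltage-gated subfamilies (Kv1 to Kv4, Kv7, and the EAG, ERG and ELK channels) open on depolarization, the SK, BK and sodium-activated channels open on intracellular ions, the inward rectifiers (Kir) and the 2-pore-domain channels (K2P) act near rest, and the silent subunits (Kv5, Kv6, Kv8 and Kv9) modify Kv2 channels. Auxiliary subunits such as the Kv beta proteins, the KChIP proteins and the BK beta subunits alter gating and trafficking. In the hippocampus, A-type Kv4 channels of pyramidal cell dendrites, the Kv7 M-current and SK channels are known for their control of excitability, and astrocytes take up potassium through a Kir channel.

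The kept names comprised 68 pore-forming or silent subunits, 13 auxiliary subunits or regulators and 2 noncoding RNAs, Kcnq1ot1 and Kcnmb4os2. Both RNAs are annotated as antisense, share exon bases with Kcnq1 and Kcnmb4 on the opposite strand, and encode no channel subunit. Pore-forming subunits share a selectivity filter, and the sequences that encode it are shown because they are what the genes have in common beyond the name. Each is a stretch of 12 codons from the longest annotated coding sequence of the gene (GENCODE M21 on GRCm38, sense strand, coding exons), with the codons for glycine, an aromatic residue and glycine in capitals. The BK pore is given first, then 4 of the 6 members called over time below (the sequences of Kcnj10 and Kcnn2 are not shown), with Kcnj13, and last Kcnk1, the highest K2P gene.
Kcnma1: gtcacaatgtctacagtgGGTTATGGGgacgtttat
Kcng3: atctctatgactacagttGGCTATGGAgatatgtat
Kcnk9, first pore: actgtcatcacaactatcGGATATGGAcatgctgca
Kcnk9, second pore: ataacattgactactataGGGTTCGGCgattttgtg
Kcnk4, first pore: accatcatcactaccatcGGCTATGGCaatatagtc
Kcnk4, second pore: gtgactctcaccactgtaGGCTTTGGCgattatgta
Kcnt1: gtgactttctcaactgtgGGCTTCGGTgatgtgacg
Kcnj13: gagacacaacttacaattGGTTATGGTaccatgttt
Kcnk1: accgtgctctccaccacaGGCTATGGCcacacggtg

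Codons for the 5-residue signature of threonine or serine, any residue, glycine, tyrosine or phenylalanine, and glycine were found in the longest coding sequence of all 68 pore-forming or silent members and in 0 of the 13 auxiliary members. The signature occurred in 574 of 21951 protein-coding genes (2.61%). It occurred once in 60 members and in 2 places in 8, and those 8 were K2P genes, whose subunits carry a pair of pore loops. In Kcnk1 and Kcnk6, the other 2 of the 10 K2P members, only the first loop matched these letters. With Kcnn2 and Kcng2 left out of this count, the aromatic codon encoded tyrosine in 50 of the signatures and phenylalanine in 24.

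The libraries held 28847989 to 41595972 counts, with a median of 31169386. Tob1 itself had 33.9 to 44.5 CPM (counts scaled to a common library total) in libraries labelled WT and 52.1 to 68.3 CPM in those labelled Tob-KO, and edgeR's quasi-likelihood test gave an adjusted p of 2.52e-10 for this log2 difference of 0.56. Counts over the whole gene thus went against the label, and directions by genotype below follow the labels as they stand. Libraries also stood apart in markers of the choroid plexus, the secretory epithelium of the ventricles next to the hippocampus, whose 12 listed genes summed to between 196 and 7318 CPM. None of these 12 genes passed the threshold by genotype or time over the 24 libraries. The markers of pyramidal neurons (9 genes), dentate granule cells (6), interneurons (8), oligodendrocytes (7), microglia (6) and striatum (7) also had 0 genes called in each of the comparisons over 24 libraries.

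Levels were compared between genes as CPM per kilobase, that is TMM-scaled CPM divided by the length of the gene's annotated exons. Kcnab2, a Kv beta subunit that assembles with Kv1 channels, had the highest level at 135 ± 8.98 CPM per kilobase (mean ± SD, n = 24 libraries). The next was Kcnip2, a calcium-binding partner of Kv4 channels, at 48.4 ± 6.15 CPM per kilobase. Both genes encode auxiliary subunits.

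Also among the 12 highest were 4 Kir genes and 1 K2P gene, which act near rest. The inward rectifier Kcnj4 was at 38.2 ± 5.15 CPM per kilobase, Kcnj10, the potassium uptake channel of astrocytes, at 38.1 ± 3.39, Kcnj3, a G-protein-gated subunit, at 35.2 ± 2.16, the G-protein-gated Kcnj9 at 27.1 ± 3.68, and the K2P gene Kcnk1 at 35.1 ± 2.67. Others of the 12 were Kcnip3 at 31.0 ± 4.32, the A-type subunit Kcnd2 at 28.4 ± 1.80 and the axonal subunit Kcna2 at 27.5 ± 2.11 CPM per kilobase. Of the 82 pairs of neighbours in the order, only 2 were apart by more than the sum of their SDs, Kcnab2 over Kcnip2 and Kcnc2 over Kcnmb4, so most of the order is one of degree. With the length of the longest transcript in place of all exons, a choice made after seeing the data, 10 of these 12 genes stayed among the 12 highest, and Kcnab1 moved from rank 19 to rank 8.

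The levels spanned more than 3 orders of magnitude on the log10 scale. In all, 30 genes had 10 or more CPM per kilobase, 67 had 1 or more and 81 had 0.1 or more. The 5 lowest were Kcnrg, a soluble regulator of Kv assembly, at 0.232 ± 0.0681 CPM per kilobase, the ELK channel Kcnh8 at 0.178 ± 0.0478, the cardiac G-protein-gated Kcnj5 at 0.167 ± 0.0509, the cardiac and epithelial Kcnq1 at 0.0993 ± 0.0445 and Kcnn4, a calcium-activated channel of blood and epithelial cells, at 0.0489 ± 0.0155. Just inside the limit of the rule were Kcnn4, whose sixth-highest library held 11 counts, and Kcnq1 and Kcnrg with 16 counts each. Just outside was Kcne3, whose sixth-highest library held 9 counts, followed by Kcnj15, Kcnv2 and the noncoding Kcnmb4os1 with 3 each. The other 9 names under the limit (Kcna7, Kcna10, Kcne1, Kcnj1, Kcnk7, Kcnk15, Kcnk16, Kcnk18 and Kcnmb3) had 0 to 2 counts in their sixth-highest library.

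**Figure D1:**
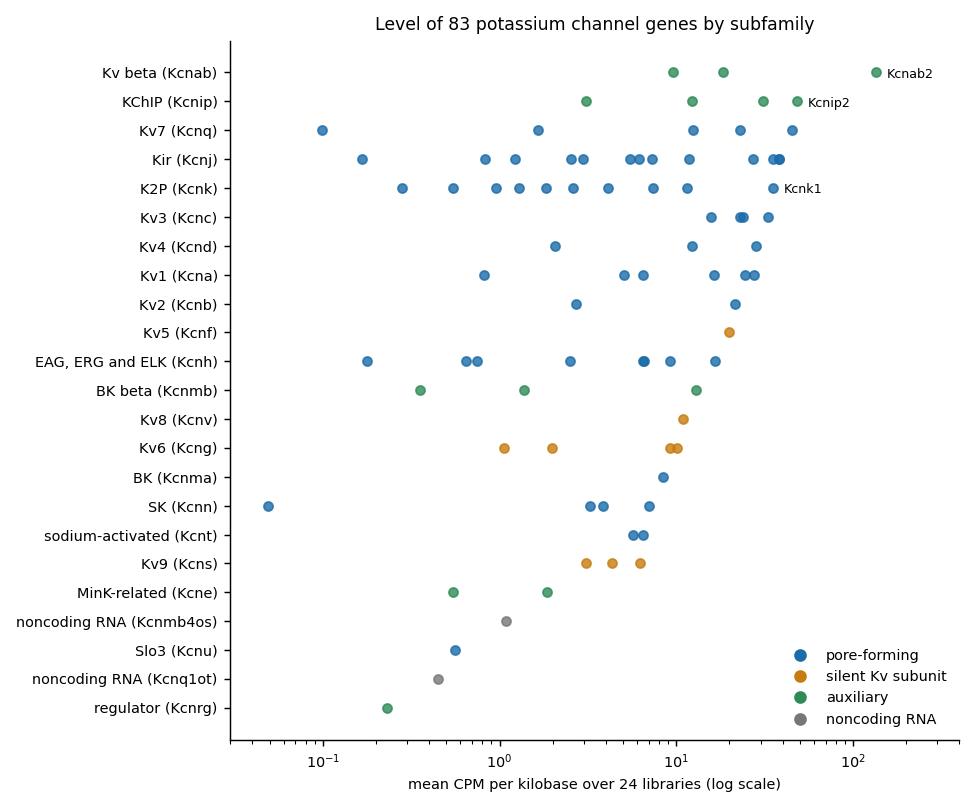
Mean CPM per kilobase over 24 libraries (x axis, log scale) of the 83 genes, 1 point per gene, in rows by subfamily ordered by the highest member, with 3 genes named. Kcnab2 at 135 CPM per kilobase stands to the right of all others. Several subfamilies hold both high and low members, such as Kir with Kcnj4 at 38.2 and Kcnj5 at 0.167, and others hold a single gene.

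Summed over members, the 13 Kir genes gave the highest level at 177 ± 11.7 CPM per kilobase (SD over 24 libraries), followed by the 3 Kv beta genes at 163 ± 9.49. The spreads of these 2 sums overlapped. Kcnab2 made up 82.8% of the Kv beta sum, whereas the highest Kir gene, Kcnj4, made up 21.6% of its own. Kv3 (95.7 ± 3.67) and KChIP (94.7 ± 4.43) formed the next level, then Kv7 (82.1 ± 3.34) and Kv1 (80.8 ± 3.46), and within each of these pairs the sums differed by less than their SDs. The 10 K2P genes followed at 65.7 ± 3.12 CPM per kilobase. This order depends on the length used. Per kilobase of the longest transcript Kv beta came first with a sum of 239, then Kir with 190 and Kv7 with 133, above KChIP with 117 and Kv3 with 112, and the SK sum below became 22.8 CPM per kilobase.

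The EAG, ERG and ELK genes, led by Kcnh3 at 16.6 ± 1.41 CPM per kilobase, summed to 42.9 ± 2.93, and the Kv4 genes to 42.7 ± 1.75. The 2 Kv2 genes, which carry the delayed rectifier, summed to 24.1 ± 2.32. Silent subunits that modify Kv2 channels were at similar sums, with Kv6 at 22.4 ± 2.09, led by Kcng1 at 10.1 ± 1.39, and the lone Kv5 gene Kcnf1 at 19.97 ± 3.39 CPM per kilobase. Kv9, led by Kcns2 at 6.25 ± 0.525, summed to 13.7 ± 0.840, and the kept Kv8 gene Kcnv1 was at 10.9 ± 1.07. The silent subunits together thus had more than the Kv2 genes in per-kilobase terms, a comparison of levels without a test.

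Channels gated by intracellular ions followed. The 4 SK genes summed to 14.2 ± 0.571 CPM per kilobase, with Kcnn2 highest at 7.04 ± 0.704, and the sodium-activated pair to 12.2 ± 1.17, with Kcnt1 at 6.50 ± 1.14. Kcnma1, the pore of the BK channel, was at 8.43 ± 0.776, below its neuronal partner Kcnmb4 at 12.97 ± 0.820. Of the remainder, the MinK-related Kcne1l was at 1.87 ± 0.259, Kcnmb4os2 at 1.09 ± 0.130, the sperm channel Kcnu1 at 0.562 ± 0.0746 and Kcnq1ot1 at 0.446 ± 0.0563 CPM per kilobase. Exons of 28 members overlapped those of another annotated gene, by over 20% of the exon bases in 5 (Kcnj13, Kcna6, Kcnmb4os2, Kcnmb4 and Kcnj3), each time with a gene on the opposite strand. Whether the counting used strand is not given in the sources used here, so reads of such pairs may not be told apart.

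**Figure D2:**
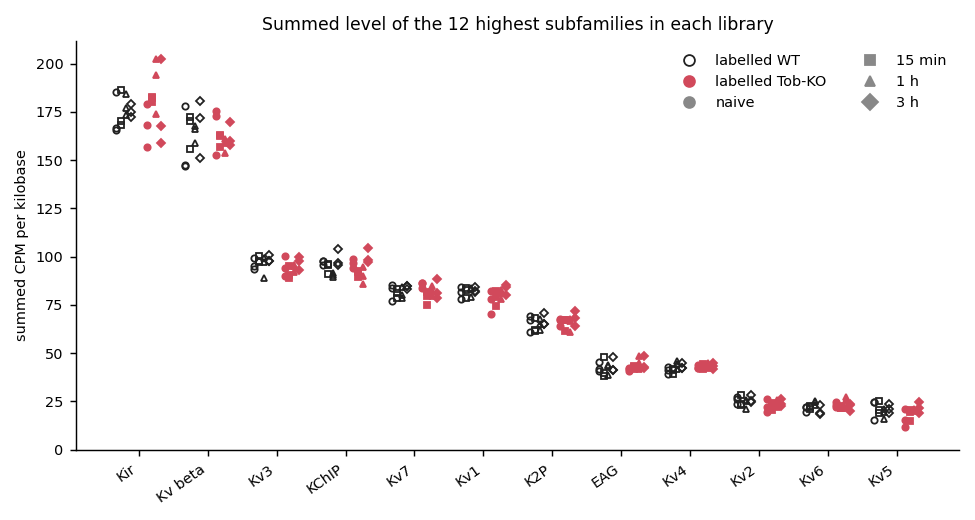
Summed CPM per kilobase (y axis) of the 12 subfamilies with the highest sums in each of the 24 libraries, open black for libraries labelled WT and filled red for Tob-KO, with the shape giving the time point. The label EAG stands for the EAG, ERG and ELK genes, and the ranges of the 2 genotypes overlap in each subfamily.

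Within groups of 3 mice the genes varied to different degrees. The pooled SD of log2 CPM within groups was 0.06 for the fast-spiking gene Kcnc1, and 0.07 for Kcna6 and Kcnq5. It was 0.26 for Kcnf1 and 0.21 for Kcnc4 and Kcnip3, among genes with 10 or more CPM per kilobase. Kcnj13, a Kir gene of transporting epithelia, was apart from all others with 2.16. These SDs set what the comparisons below could detect, and the genes given here for their spread were chosen after their values were seen.

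By genotype, 0 of the 83 members passed an adjusted p of 0.05 by edgeR's quasi-likelihood test over 12 libraries labelled Tob-KO and 12 labelled WT, with time point as a factor, against 0.451% of the 19500 genes tested. At an unadjusted p under 0.05 there were 12 members (14.5%), 5 higher and 7 lower, against 12.9% of all genes, and DESeq2 called 1. The median log2 fold change was -0.0088 for the members and -0.0016 for all genes. The share of members was thus near that of all genes.

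Kcnn1, an SK channel subunit, was nearest to the threshold. It had 17.0, 18.2 and 20.6 CPM (lowest, median and highest of 12) in libraries labelled WT, and 14.9, 16.9 and 18.3 CPM in those labelled Tob-KO. The ranges overlapped, and the log2 fold change was -0.14 (SE 0.0350, adjusted p = 0.0563 by edgeR's quasi-likelihood test). With DESeq2 its adjusted p was 0.0126. For the K2P gene Kcnk4 the value was -0.20 (adjusted p = 0.173) and for the EAG gene Kcnh1 it was 0.17 (adjusted p = 0.199), both log2 fold changes by the same edgeR test. Kcnh1 ranged from 54.0 to 75.9 CPM in the libraries labelled WT and from 60.4 to 81.2 CPM in those labelled Tob-KO.

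The 2 genes with the highest levels had small differences by genotype. Kcnab2 had a log2 fold change of -0.02 (SE 0.0396) and Kcnip2 of 0.04 (SE 0.0654). By subfamily, medians of the log2 fold change lay between -0.13 for the lone Kv5 gene and 0.14 for Kcnrg, and of the Kir genes 6 were higher and 7 lower. The 4 members within 20 Mb of Tob1 on chromosome 11, a region that a knockout line can carry from its founder strain, were Kcnh4 at 6.52 Mb, Kcnh6 at 11.8 Mb, Kcnj16 at 16.8 Mb and Kcnj2 at 16.9 Mb. Kcnh4, an ELK channel, had 3.34 ± 1.22 CPM (SD, n = 12) in libraries labelled WT and 2.54 ± 0.806 CPM in those labelled Tob-KO, a log2 difference of -0.41 (adjusted p = 0.374, edgeR). The log2 fold changes of the others were -0.01 for Kcnh6, -0.04 for Kcnj16 and 0.17 for Kcnj2, with adjusted p from 0.485 to 0.976 in the same edgeR test.

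**Figure D3:**
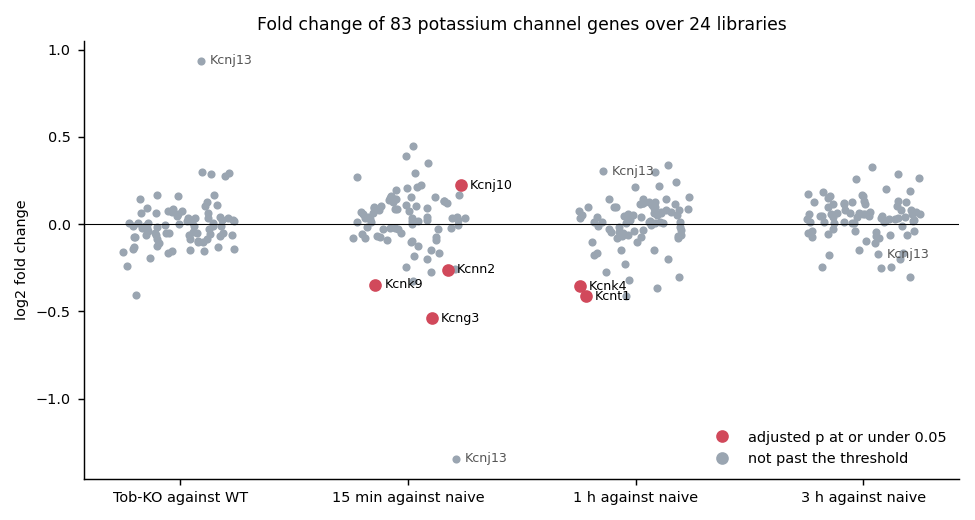
Log2 fold change (y axis) of each of the 83 genes in the 4 comparisons over 24 libraries, with points spread sideways for legibility, larger red points past an adjusted p of 0.05 and grey points not. The named red genes passed at 15 min or 1 h, and Kcnj13 is named for its distance from the others.

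Over time, 4 of 83 members (4.82%) passed the threshold at 15 min against naive mice of both genotypes, against 4.71% of all genes by the same quasi-likelihood test. A Kir gene rose (all genes called higher, 1.70%) and 3 members fell (all genes called lower, 3.01%). At an unadjusted p under 0.05 there were 14 members against 19.8% of all genes. The median log2 fold change was 0.04 for the members and 0.0027 for all genes, and 50 of the 83 had a positive value, against 50.8% of all genes. Early genes known to respond to neuronal activity rose in 10 of 10 listed cases, led by Egr2 at a log2 fold change of 2.66 (adjusted p = 7.48e-05, edgeR).

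Kcnj10, the Kir channel of astrocytes on chromosome 1 (172341210 to 172374085 on GRCm38), rose. Naive mice had 177, 189 and 215 CPM (lowest, median and highest of 6) and mice at 15 min had 207, 222 and 250 CPM, so that the ranges overlapped at their ends. The log2 fold change was 0.22 (SE 0.0517, adjusted p = 0.0128, edgeR). It was 0.20 (SE 0.0699) within the libraries labelled WT and 0.25 (SE 0.0699) within those labelled Tob-KO. Of the 6 astrocyte markers, 2 rose at the same time, Aqp4 at a log2 fold change of 0.32 and Gja1 with 0.23, and the list summed to 4391 to 4625 CPM in naive mice and 4249 to 4961 CPM at 15 min. The part of a change in astrocyte RNA in the result was not tested.

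Kcnn2, the SK channel subunit with the highest level, fell. It had 51.3, 56.8 and 57.9 CPM in naive mice and 40.1, 46.7 and 51.6 CPM at 15 min, and only the highest of the later values reached the naive range. Its log2 fold change was -0.26 (SE 0.0573, adjusted p = 0.0100, edgeR), with -0.16 (SE 0.0779) in libraries labelled WT and -0.36 (SE 0.0779) in those labelled Tob-KO. At 3 h Kcnn2 was at 53.4, 55.8 and 60.7 CPM, within reach of the naive values.

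Kcng3, a silent Kv6 subunit on chromosome 17 (83585957 to 83631895), fell from 2.74, 3.99 and 4.84 CPM to 1.99, 2.88 and 3.20 CPM. Its log2 fold change of -0.54 (SE 0.140, adjusted p = 0.0267, edgeR) was the largest decrease among the called members, and at 1 h the level was 3.61, 4.03 and 4.67 CPM. The third decrease was in Kcnk9, an acid-sensitive K2P channel on chromosome 15 (72501089 to 72546340), with 14.9, 16.7 and 23.2 CPM in naive mice and 11.7, 13.4 and 18.5 CPM at 15 min. Its log2 fold change was -0.35 (SE 0.102, adjusted p = 0.0489, edgeR). Both ranges overlapped with those of naive mice, and the call of Kcnk9 was lost in 24 of 31 alternatives, 20 of them the omission of 1 library, and with no filter on low counts its adjusted p was 0.0787. Kcng3 lost its call without WT naive replicate 3 (adjusted p = 0.0742), WT 15 min replicate 2 (0.0743), Tob-KO naive replicate 2 (0.0654), Tob-KO naive replicate 3 (0.0768) or Tob-KO 15 min replicate 3 (0.0924).

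Several members missed the threshold at 15 min. In log2 terms the difference from naive mice was -0.32 for the sodium-activated Kcnt1, -0.27 for the G-protein-gated Kcnj6, 0.27 for Kcnj16, which assembles with Kcnj10, and 0.35 for Kcnj8, the Kir subunit of pericytes, with adjusted p from 0.0786 to 0.136 by edgeR. Of the 6 endothelium and pericyte markers 5 rose at 15 min, led by Cldn5 at a log2 fold change of 0.85, and the list summed to 184 to 239 CPM in naive mice and 240 to 353 CPM at 15 min. Their part in the value of Kcnj8 was not tested. Among Kir genes 11 of 13 had a positive log2 fold change at 15 min, against 50.8% of all genes. Their median was 0.14, and 1 was called. Kcnj6, Kcnt1, Kcnj16 and Kcnj8, and the count of signs in the Kir genes, were chosen after their values were seen.

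At 1 h after conditioning, 2 members were called against naive mice (2.41%, against 5.89% of all genes), and both fell, against 3.56% of all genes called lower. At an unadjusted p under 0.05 there were 11 members against 19.7% of all genes. The medians were 0.02 for the members and -0.0031 for all genes.

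Kcnk4, a mechanosensitive K2P channel on chromosome 19 (6923966 to 6934515), fell from 8.11, 8.99 and 9.57 CPM in naive mice to 5.34, 7.22 and 7.98 CPM at 1 h. The 6 later libraries all lay below the 6 naive ones. This gave a log2 fold change of -0.36 (SE 0.0905, adjusted p = 0.0190, edgeR), and at 3 h the level was 6.99, 8.67 and 11.3 CPM. Without Tob-KO 1 h replicate 1 its adjusted p was 0.0514. Exons of Catsperz on the same strand cover 13.1% of its exon bases.

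Kcnt1, a sodium-activated channel on chromosome 2 (25863734 to 25918273), fell from 51.8, 71.6 and 79.1 CPM to 46.2, 51.0 and 61.3 CPM at 1 h, with overlap from 1 low naive library. The log2 fold change was -0.41 (SE 0.105, adjusted p = 0.0212, edgeR), -0.45 (SE 0.159) in libraries labelled WT and -0.38 (SE 0.160) in those labelled Tob-KO. Its call was lost without WT naive replicate 3 (adjusted p = 0.0517), WT 1 h replicate 1 (0.0522), Tob-KO naive replicate 3 (0.0550) or Tob-KO 1 h replicate 2 (0.0585). At 3 h Kcnt1 was at 56.9, 69.6 and 75.2 CPM. The members called at 15 min and 1 h were different genes, but these times were not tested against each other. The share of all genes called at both is not given here. Both members called at 1 h were already lower at 15 min. In log2 terms Kcnt1 was at -0.34 in WT and -0.30 in Tob-KO libraries, and Kcnk4 at -0.15 and -0.22. All comparisons with naive mice share the same 6 naive libraries.

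**Figure D4:**
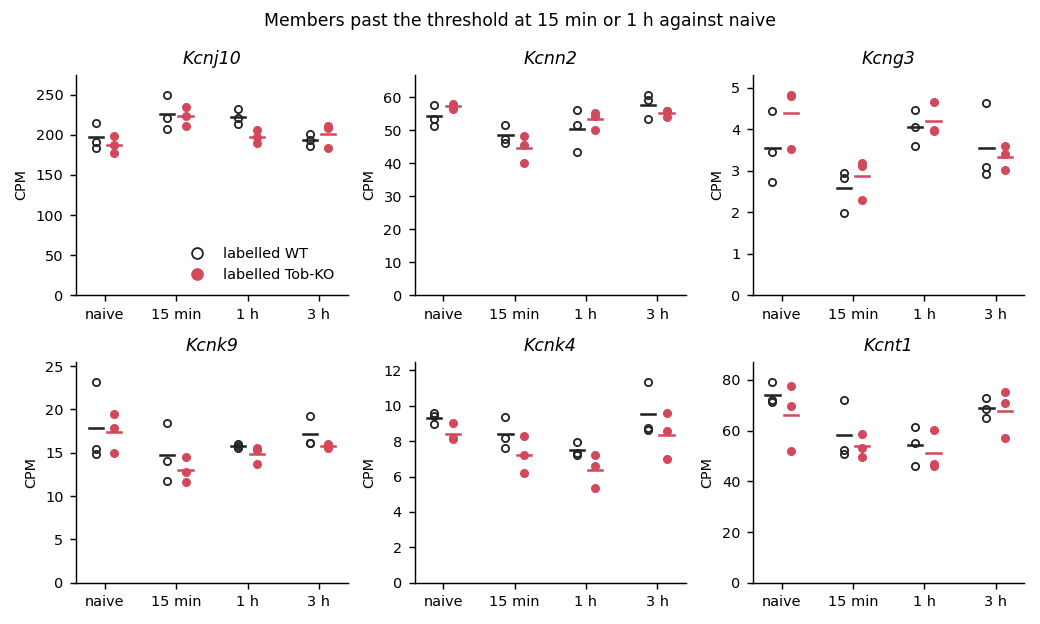
CPM (y axis, from 0) of the 6 called members by time point (x axis), 1 point per mouse, open black for libraries labelled WT and filled red for Tob-KO, with a bar at the mean of 3 mice. Kcnj10 is higher at 15 min, Kcnn2, Kcng3 and Kcnk9 are lower at 15 min, and Kcnk4 and Kcnt1 are lower at 1 h. Most points at 3 h lie near the naive ones. Kcng3 in the libraries labelled Tob-KO has a mean of 3.34 CPM at 3 h and 4.39 CPM in naive mice.

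At 3 h, 0 members were called, as were 0 of all genes (0%), by edgeR's quasi-likelihood test, and DESeq2 also called 0 members. At an unadjusted p under 0.05 there were 3 members against 8.86% of all genes, namely Kcnq1ot1, Kcnj2 and Kcnj16. Positive log2 fold changes were found in 59 of 83 members, with a median of 0.04, against 47.4% of all genes with a positive value and a median of -0.0068. The EAG, ERG and ELK genes were positive in 8 of 8 cases and the Kv1 genes in 6 of 6, with medians of 0.09 and 0.08, none of them called. These subfamilies were chosen after their values were seen, and their signs were not shared by both genotypes. Within libraries labelled WT, Kcna3, Kcna4, Kcna5, Kcna6, Kcnh3, Kcnh4, Kcnh7 and Kcnh8 were negative at 3 h. Within those labelled Tob-KO only Kcnh2 was. Kcnh4, for example, was at -0.25 (SE 0.378) in WT and 0.55 (SE 0.393) in Tob-KO libraries.

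Whether the change over time differed between the genotypes was tested by the interaction of genotype and time. It gave 0 called members and 0 called genes of all (0%) by edgeR's quasi-likelihood test, and DESeq2's likelihood ratio test also gave 0 members. At an unadjusted p under 0.05 there was 1 member against 3.87% of all genes. With the WT libraries alone 0 members were called at 15 min and 0 at 1 h, and with the Tob-KO libraries alone 1 (Kcnn2) and 0. The shares of all genes called in these smaller fits are not given here. Their counts do not compare the genotypes, which the interaction does.

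Genotypes were then compared within each time point by edgeR's exact test over 6 libraries, with an adjusted p of 0.05 and a fold change of at least 2. At each of the 4 time points both the quasi-likelihood test of edgeR and DESeq2 called 0 members. How many of all genes these tests called is not given here, so this says nothing particular to the members. By the exact test, in naive mice 0 members were called, against 0.0218% of all genes, and 1 had an unadjusted p under 0.05, against 4.04%. The 2 members with the smallest p in naive mice were Kcnh4, at a log2 fold change of -0.84 (adjusted p = 0.965, edgeR), and the Kv beta gene Kcnab3. Kcnh4 had 4.95, 3.00 and 2.86 CPM in WT and 2.10, 1.57 and 2.36 CPM in Tob-KO libraries, without overlap.

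At 1 h, 0 members were called, against 0.0330% of all genes, and 6 had an unadjusted p under 0.05, against 5.34%. The smallest p values were those of Kcnh1 at a log2 fold change of 0.21 and Kcnj10 with -0.17 (adjusted p = 0.398 and 0.456, edgeR exact test). Kcnj10 had 232, 221 and 213 CPM in WT and 189, 197 and 207 CPM in Tob-KO libraries at 1 h. The astrocyte list summed to 4425 to 4793 CPM in those WT libraries and to 3947 to 4158 CPM in those Tob-KO libraries, and its part in this difference was not tested.

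At 3 h, 0 members were called, against 0.0274% of all genes, and 3 had an unadjusted p under 0.05, against 3.97%. The BK subunit of smooth muscle Kcnmb1 (log2 fold change 0.90) and the silent subunit Kcng2 (0.25) had the smallest p, both with an adjusted p of 1 in edgeR's exact test. Kcnmb1 is a low gene with 0.436 to 1.11 CPM in WT and 1.19 to 1.97 CPM in Tob-KO libraries at 3 h.

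At 15 min 1 member was called, Kcnj13, which was higher in libraries labelled Tob-KO, against 0.555% of all genes called and 0.457% called higher. At an unadjusted p under 0.05 there were 5 members, against 8.05%. Kcnj13 had 1.57, 1.27 and 1.12 CPM in the 3 WT libraries and 1.86, 30.4 and 10.8 CPM in the 3 Tob-KO libraries. In the exact test of edgeR the log2 fold change was 3.44 (adjusted p = 0.00416), and the quasi-likelihood test of edgeR on the same libraries gave an adjusted p of 0.574. Kcnh1 came next, at a log2 fold change of 0.26 (adjusted p = 0.444, edgeR exact test).

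Kcnj13 moved with the choroid plexus markers across all groups. Ttr, the transthyretin gene by which that epithelium is known, was between 3.63 and 35.8 CPM in 10 libraries, 6 labelled WT and 4 Tob-KO, and Kcnj13 was between 0.786 and 1.86 CPM in those 10. In the other 14 libraries, 6 labelled WT and 8 Tob-KO, Ttr was between 580 and 4211 CPM and Kcnj13 between 8.25 and 42.0 CPM, with no overlap. All 3 WT libraries at 15 min were among the 10, and 2 of the 3 Tob-KO libraries at 15 min were among the 14. At 15 min the choroid plexus list summed to 196 to 235 CPM in WT and 284 to 5283 CPM in Tob-KO libraries. Over all 24 libraries the log2 fold change of Kcnj13 by genotype was 0.94 (SE 0.774, adjusted p = 0.638, edgeR quasi-likelihood test). Without WT 15 min replicate 3 the call at 15 min was lost (adjusted p = 0.107, exact test of edgeR). Exons of Gigyf2 on the opposite strand cover 49.1% of the exon bases of Kcnj13.

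**Figure D5:**
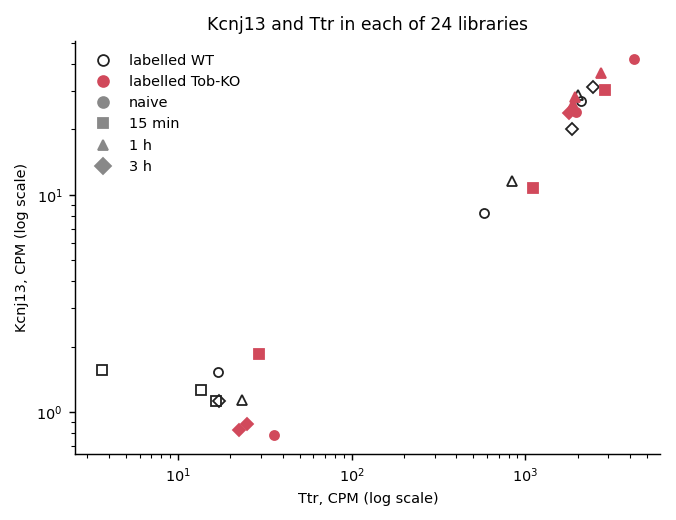
Kcnj13 (y axis) against the choroid plexus gene Ttr (x axis) in each of the 24 libraries, both in CPM on log scales, with colour for the genotype label and shape for the time point. A set of 10 libraries has Kcnj13 at or under 1.86 CPM and the other 14 lie at 8.25 CPM or more.

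Genes that work with potassium channels but carry other names were counted in the same tests over 24 libraries. Of 26 listed partners (scaffolds, sulfonylurea receptors, dipeptidyl peptidase-like and calmodulin genes) 24 were tested. By genotype 0 were called, against 0.451% of all genes. At 15 min 2 fell, Pdzd2, a PDZ protein, at a log2 fold change of -0.43 (adjusted p = 0.0018, edgeR), and Sptbn4, the spectrin that holds Kv7 channels at the axon initial segment, with -0.21 (adjusted p = 0.0238, edgeR). Sptbn4 was also the partner called at 1 h, with -0.23 (adjusted p = 0.0112, edgeR), against 3.56% of all genes called lower. At 3 h 0 partners were called.

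Other voltage-gated channels were listed beside them. These lists too were chosen with earlier results of these data known. Of 15 calcium channel genes 4 fell at 15 min, against 3.01% of all genes called lower. They were the pore-forming Cacna1h, Cacna1d, Cacna1a and Cacna1b, with log2 fold changes of -0.42, -0.21, -0.16 and -0.17. At 1 h Cacna1a alone of the calcium channel list passed, with -0.18 (adjusted p = 0.0079, edgeR), against 3.56% of all genes called lower. Of 8 tested sodium channel genes Scn3a fell at 15 min with -0.20 (adjusted p = 0.0242, edgeR), and of 4 HCN pacemaker genes 0 were called. None of these lists had a call by genotype or at 3 h. The medians at 15 min were -0.14 for the calcium channel genes, -0.03 for the sodium channel genes, 0.07 for the HCN genes and 0.01 for the partners, against 0.04 for the potassium channel genes and 0.0027 for all genes.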

How the data were processed

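The authors purified poly(A) RNA from the hippocampus, made directional libraries with 8 PCR cycles, sequenced 150-bp pairs, mapped them with STAR 2.6.1d (GRCm38, nf-core/rnaseq) and counted reads per gene with HTSeq 0.9.0. They deposited raw counts of 47593 genes in 24 libraries without normalization. Annotation release, strand setting and use of marked duplicates are not given in the sources used here, and PCR reads without molecular identifiers are not independent molecules.

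Levels are TMM-scaled CPM (edgeR 4.0.16, R 4.3.3), per kilobase of GENCODE M21 exons. Genes with 0.2 CPM in 2 libraries were tested, and all 83 members passed this filter. Comparisons over 24 libraries used the quasi-likelihood test of edgeR, p-values being adjusted over all genes by Benjamini and Hochberg's method with a limit of 0.05, and those over 6 libraries the exact test with the study's limits. The script was tested on simulated data. Standard errors derive from the quasi-likelihood F. Replicates differed by 3.68 to 22.8 chi-square per degree of freedom, so none were repeat counts of the same library. This value cannot exclude separate libraries made from the same RNA. The paper describes its replicates as biological, and each library is taken here as a separate mouse.

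The members and lists were chosen with earlier results of these data known. Genes were named by rule: the 12 highest and 5 lowest members, the highest of each subfamily, called members, the 2 smallest p values in each comparison of 6 libraries, members within 20 Mb of Tob1, and the lists' leading genes. Alternatives were size factors, no filter, DESeq2 1.42.0, a replicate block, a choroid plexus score, 1 genotype alone, the quasi-likelihood test, no fold limit and leaving out each library. Some genes and sequences that this rule covers are not reported here.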

Additional observations from a re-analysis of the deposited data

How the results depend on the processing

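The calls are few and several lie near the threshold. Of the members called over time, Kcnn2 kept its call in 30 of 31 alternatives and Kcnj10 in 29 of 31. Leaving out 1 library removed the call of neither. The count of members called by genotype was 0 and became 1 (Kcnn1) with DESeq2 and 0 to 1 with each library left out, being 1 without Tob-KO 1 h replicate 2 or Tob-KO 3 h replicate 1. The 4 members called at 15 min became 0 with WT libraries only, 1 with Tob-KO libraries only, 7 with DESeq2 and 2 to 6 with each library left out, being 2 without WT naive replicate 3, WT 15 min replicate 2, Tob-KO naive replicate 3 or Tob-KO 15 min replicate 3. The 2 called at 1 h became 0 with either genotype alone and 1 to 3 with each library left out, being 1 without WT naive replicate 3, WT 1 h replicate 1, Tob-KO naive replicate 3, Tob-KO 1 h replicate 1 or Tob-KO 1 h replicate 2. The 1 member called between genotypes at 15 min became 0 with the quasi-likelihood test, 0 with DESeq2 and 0 to 2 with each library left out, being 0 without WT 15 min replicate 3 and 2 without Tob-KO 15 min replicate 1. With 1 genotype alone fewer libraries enter, and otherwise the cause was not tested. The shares of all genes called under these alternatives are not given here. The counts at 3 h, in the interaction and between genotypes at the times other than 15 min stayed 0 under every alternative run. No log2 fold change of the 8 members followed through the alternatives changed sign.

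The same replicate numbers occur in all 8 groups. Deviations of same-numbered libraries from their group means had correlations from -0.662 to 0.680 (mean -0.02 over 84 pairs). This mean showed no pairing by number, but it cannot show whether particular groups were paired. With the replicate block the counts over 24 libraries stayed at 0, 4, 2, 0 and 0, and the quasi-likelihood test with the replicate block called 0 members between genotypes at 15 min. Adding the choroid plexus score left 0, 4, 2, 0 and 0 as well. The 3 mice per group and low counts of genes such as Kcnn4 limit what could be detected.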
